A study of Mus musculus with 4 samples.

Results

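The chemokine system was examined in fetal liver LSK cells of *Pich*-KO and *Pich*-WT mouse embryos by RNA sequencing. It comprised the 56 genes of the deposited table, of 39186 genes in all, whose symbols are those of CC, CXC, XC and CX3C chemokines or of their receptors. They were chosen by name, with earlier results of these data known, and comprised 34 ligands and 22 receptors, of which 4 are atypical receptors. LSK cells are the lineage-negative, Sca-1+, c-Kit+ fraction in which hematopoietic stem cells and early progenitors are enriched, and the comparison asked how loss of PICH, a DNA translocase that acts on bridges between separating chromosomes, alters their transcriptome.

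Each group held 2 sequenced samples of mid-gestation embryos on a C57BL/6 background, *Pich*-WT with the intact gene and *Pich*-KO with a small deletion in exon 2 in every cell of the embryo. Hematopoietic and non-hematopoietic cells therefore both carried the deletion, and no further allele or agent was given to either group. The labels do not say whether the samples of a group came from separate embryos or from pools. The p-values measure only the spread between these samples, which may be technical in *Pich*-KO. The *Pich*-WT samples differed in their reads on Y-linked genes and *Xist*, given below, and so did not come from the same material. In the sort described for these livers, the lineage antibodies were against CD4, CD8, Gr-1, B220 and Ter119, and an antibody to a macrophage surface protein is not among them. The deposited values are reads on each gene divided by a size factor of the sample, called normalized counts here. The *Pich*-KO samples held 15195434 and 14703215 such reads, and the *Pich*-WT samples 20933919 and 15567891.

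Chemokines are small secreted proteins that bind heparan sulfate and draw cells along a gradient through receptors coupled to inhibitory G proteins. Atypical receptors bind chemokines without this coupling and remove or transport them. In blood formation, *Cxcl12* made by stromal cells of the niche holds stem cells through *Cxcr4*, while inflammatory chemokines and their receptors are mostly products of macrophages, monocytes, granulocytes and lymphocytes. *Cxcl9*, *Cxcl10* and *Cxcl11* are classed as interferon-inducible.

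The label of the samples was set against marker genes before the chemokine genes were compared, and the plot of marker lists shows the sums. The marker lists, too, were chosen with earlier results of these data known. The targeted gene, listed as *Ercc6l*, was not reduced in RNA. It had 1142 and 1232 normalized counts in *Pich*-KO against 772 and 661 in *Pich*-WT, and was higher in *Pich*-KO (log2 fold change 0.73, adjusted p = 0.00887, limma). A count over the whole gene does not show whether its reads carry the deletion, so it does not check the genotype labels. *Kit* and *Ly6a*, which encode the c-Kit and Sca-1 of the sort, were read in all 4 samples. The normalized count of *Kit* was 4447 and 2772 in *Pich*-KO against 2328 and 2513 in *Pich*-WT, and that of *Ly6a* was 3586 and 2978 against 901 and 1061. Genes of mature cells were present beside them. All 15 macrophage markers were lower in *Pich*-KO at an adjusted p of 0.05, and their summed normalized count was 9765 and 8566 in *Pich*-KO against 76263 and 82626 in *Pich*-WT, an 8.67-fold difference. Of these, *Vsig4* had 0 reads in *Pich*-KO sample 2. Dendritic cell markers were lower for 5 of 6 genes, endothelial markers for 7 of 7 and erythroid markers for 7 of 7. Their summed counts were 44.8-fold, 12.1-fold and 4.94-fold lower in *Pich*-KO. Most of the dendritic cell sum in *Pich*-WT came from *H2-Ab1* (8224 and 5306) and *H2-Aa* (4880 and 3511). The dendritic cell gene *Siglech* was not called (adjusted p = 0.375, limma). Neutrophil markers were higher for 2 of 9 genes, *Mpo* and *Prtn3*, with sums of 63622 and 118193 in *Pich*-KO against 16474 and 19099 in *Pich*-WT. The other 7 were not called, 4 of them (*Ltf*, *Camp*, *Ngp* and *S100a9*) with a negative log2 fold change, and their sums of 2139 and 12431 against 4655 and 4959 overlapped between groups. Mast cell and basophil markers were higher for 2 of 7 genes and monocyte markers higher for 2 and lower for 2 of 6. Stem and progenitor markers were higher for 1 (*Ly6a*) and lower for 4 (*Procr*, *Mecom*, *Hlf* and *Slamf1*) of 10. The further lists were those of megakaryocytes (2 lower of 6), hepatoblasts (3 lower of 6), stromal cells (1 higher of 7) and B, T and NK cells (1 lower of 8). *Pich*-WT sample 2 differed from the other samples in its 0 reads on 4 Y-linked genes and 699 reads on *Xist*, against 4 to 13 reads on *Xist* in the others. The others had 1607 to 2848 reads on the Y-linked genes, so sex was not balanced between the groups. The part of sex in the results was not tested. In a bulk sample, fewer cells of a type and less RNA per cell cannot be told apart. The part of these markers in the results below was not tested.

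**Figure D1:**
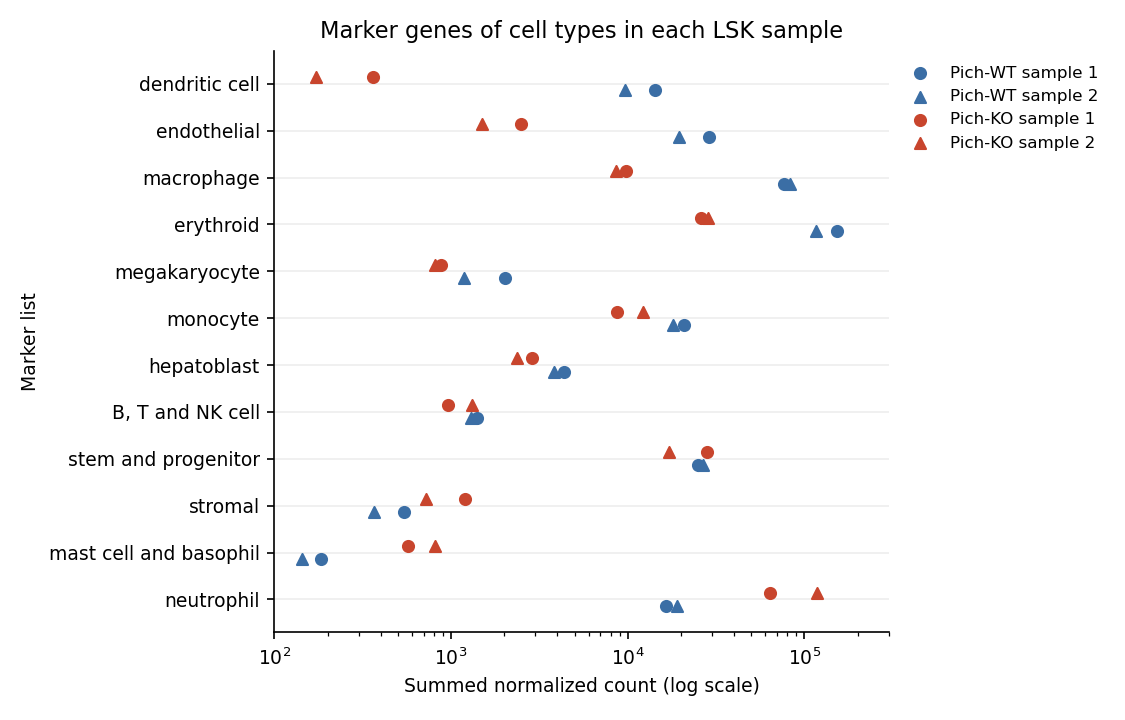
Summed normalized counts of 12 marker lists (log axis) in each LSK sample, with *Pich*-WT in blue and *Pich*-KO in red and sample 1 as circles and sample 2 as triangles. The macrophage sums were 9765 and 8566 in *Pich*-KO against 76263 and 82626 in *Pich*-WT, and the neutrophil sums, most of which are *Mpo* and *Prtn3*, were 63622 and 118193 against 16474 and 19099.

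Most chemokine and receptor genes whose RNA differed were lower in *Pich*-KO. The test used was limma on log2(normalized count + 1) with a trend of the prior variance on the mean, over the 32428 genes whose mean was 1 or more, with Benjamini-Hochberg adjustment over all of them. Of the 56 genes, 51 passed this filter, 30 ligands and 21 receptors. At an adjusted p of 0.05, 18 of the 51 (35.3%) were lower in *Pich*-KO, where 9.6% of all genes tested were lower, and 1 of the 51 (1.96%) was higher, where 7.58% of all genes were. With the filter at a mean of 10, 18 of 34 (52.9%) were lower, where 21.5% of all genes were. Under that filter 2 of 34 (5.88%) were higher, where 17.9% of all genes were. Log2 fold changes are *Pich*-KO minus *Pich*-WT on the log2(normalized count + 1) scale, so that changes of genes with few reads are understated, and are given ± their standard error. Their median was −0.89 over the 51 genes and 0.02 over all genes tested. Of the tested genes, 34 had a negative and 17 a positive log2 fold change. The groups did not overlap for 25 of the 51 genes with *Pich*-KO lower (49.0%) and for 10 with *Pich*-KO higher (19.6%), against 27.2% and 28.9% of all genes tested. Some members passed the filter only through the group in which they were high, so these counts describe the tested genes and not all 56.

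Receptors and ligands were both lower more often than higher, and the difference between these classes was not tested. Of 21 receptors tested, 10 (47.6%) were lower and 1 (4.76%), *Cxcr4*, was higher, with a median log2 fold change of −1.31. Of 30 ligands tested, 8 (26.7%) were lower and 0 higher, with a median of −0.73. Of all genes tested, 9.6% were lower and 7.58% higher. An unadjusted p under 0.05 was found for 12 of the 30 ligands and for 9294 of the 32428 genes tested (limma). By the group means, the largest difference was 95.7-fold, for *Ccl24*. The smallest p that an exact two-sided permutation test allows for 2 samples against 2 is 0.333. The smaller p-values given here depend on the model of limma, which borrows variance information from other genes. With a single prior variance in place of the trend, 0 of the 51 genes passed with limma. Before adjustment, 21 of them had a p under 0.05, as had 7377 of the 32428 genes tested. Leaving out *Pich*-WT sample 1, *Pich*-WT sample 2 or *Pich*-KO sample 2 left 0 calls, and leaving out *Pich*-KO sample 1 left 10 genes lower and 0 higher. None of the 19 genes called with all samples changed its direction in these fits.

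**Figure D2:**
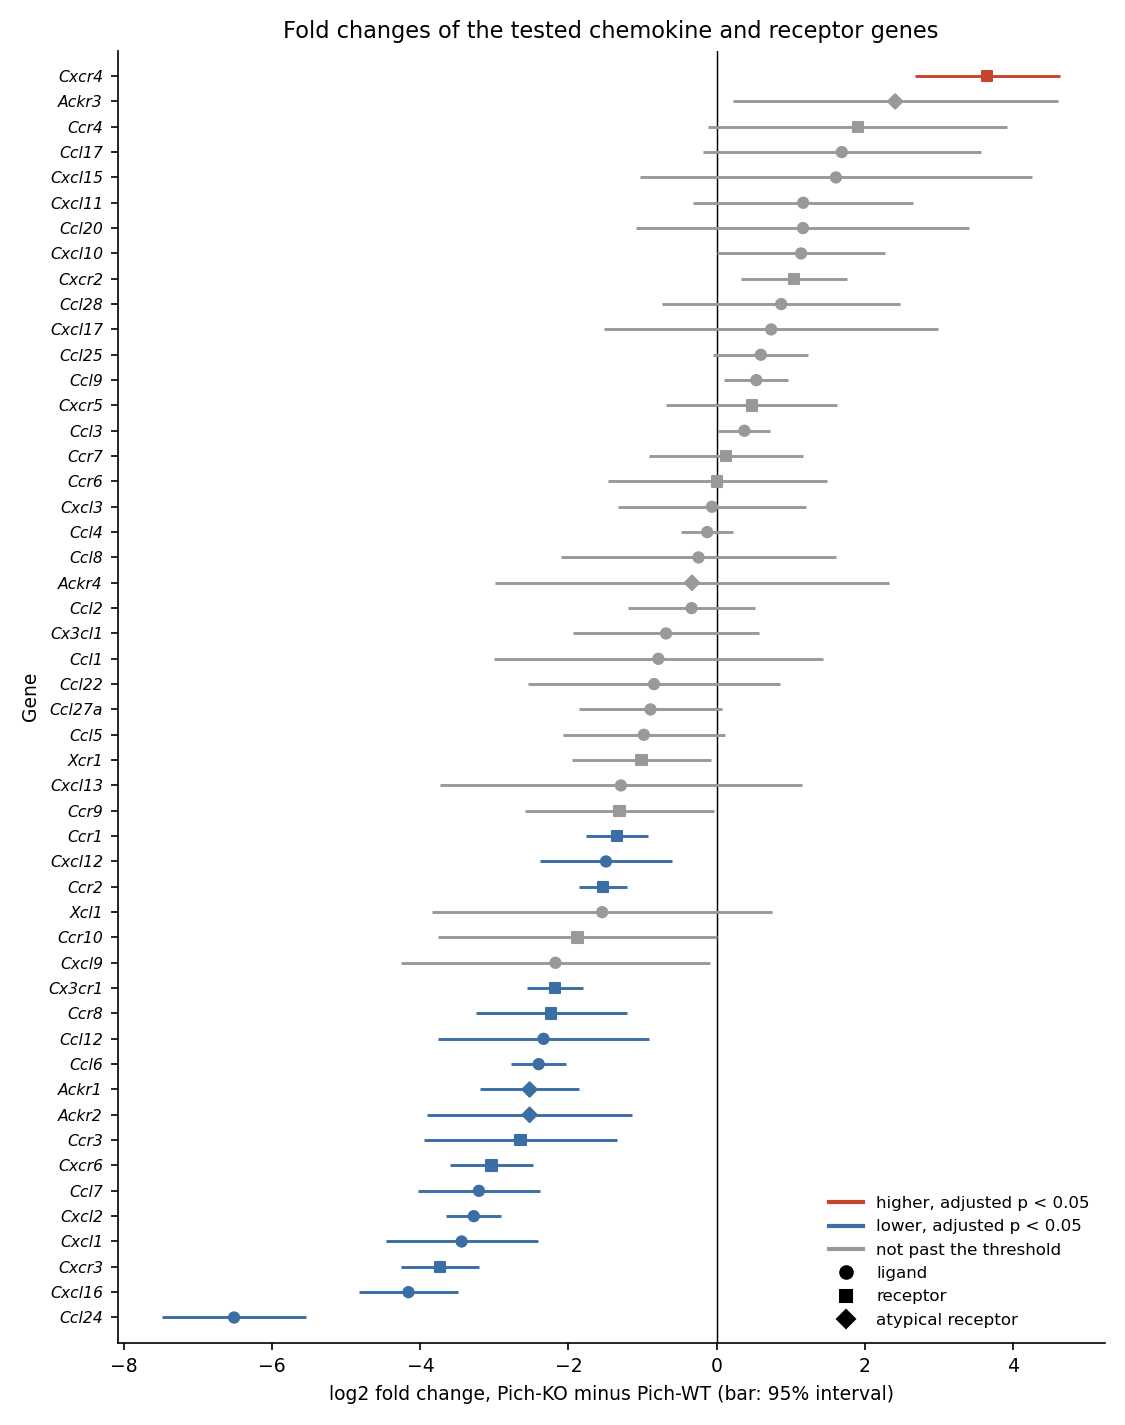
Log2 fold change, *Pich*-KO minus *Pich*-WT, of 50 tested genes with 95% intervals from limma, in red where higher and in blue where lower at an adjusted p of 0.05, with circles for ligands, squares for receptors and diamonds for atypical receptors. *Cxcr4* alone lies on the right among the genes past the threshold, and the 17 lower genes drawn run from *Ccr1* at −1.34 to *Ccl24* at −6.52.

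In the axis of *Cxcl12* and its receptors, the signalling receptor rose and the ligand fell in *Pich*-KO. *Cxcr4* (ENSMUSG00000045382, GRCm38 chromosome 1, 128588199 to 128592293, minus strand), the receptor through which *Cxcl12* retains stem cells in the niche, had normalized counts of 117 and 191 in *Pich*-KO against 14.8 and 8 in *Pich*-WT. The lowest *Pich*-KO sample lay far above both *Pich*-WT samples. The *Pich*-KO mean was 13.5-fold that of *Pich*-WT (log2 fold change 3.65 ± 0.42, adjusted p = 0.000877, limma). Per kilobase of exon, *Cxcr4* was the fourth of the receptors in *Pich*-KO, at a mean of 85.1, and lay at rank 15 in *Pich*-WT, at 6.32. *Cxcl12* itself (ENSMUSG00000061353, chromosome 6, 117168535 to 117181367, plus strand) had 19.6 and 18.2 normalized counts in *Pich*-KO against 67.2 and 45 in *Pich*-WT, with no overlap between groups. It passed the threshold (log2 fold change −1.49 ± 0.38, adjusted p = 0.0318, limma), and its adjusted p was 0.058 when no filter on the mean was applied. *Ackr3*, the atypical receptor that scavenges *Cxcl12* and also binds *Cxcl11*, had 14.2 and 12.5 normalized counts in *Pich*-KO against 6.25 and 0 in *Pich*-WT. Both *Pich*-KO samples were higher, but *Ackr3* did not pass the threshold (log2 fold change 2.41 ± 0.95, adjusted p = 0.138, limma). Of the stromal markers, 1 of 7 was higher in *Pich*-KO, with sums of 1200 and 717 against 538 and 367, the endothelial markers were lower in 7 of 7 genes, and of the 9 neutrophil markers *Mpo* and *Prtn3* were higher and 7 were not called. Of the 10 stem and progenitor markers, *Ly6a* was higher, *Procr*, *Mecom*, *Hlf* and *Slamf1* were lower and 5 were not called. Their part in the *Cxcr4* and *Cxcl12* values was not tested.

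The receptors of monocytes and macrophages, among them *Ccr1*, *Ccr2* and *Cx3cr1*, respond to inflammatory ligands, and these 3 were lower in *Pich*-KO. *Cx3cr1* (ENSMUSG00000052336, chromosome 9, 119901616 to 120069879, minus strand), the receptor of fractalkine on monocytes, macrophages and microglia, had normalized counts of 1077 and 774 in *Pich*-KO against 4342 and 3950 in *Pich*-WT. These groups were well apart, a 4.48-fold difference (log2 fold change −2.18 ± 0.16, adjusted p = 0.00012, limma). *Ccr2*, which draws monocytes towards *Ccl2*, *Ccl7* and *Ccl12*, had 1315 and 1358 in *Pich*-KO against 4430 and 3400 in *Pich*-WT. Its *Pich*-KO samples were nearly equal and its *Pich*-WT samples were both higher (log2 fold change −1.54 ± 0.14, adjusted p = 0.000279, limma). *Ccr1*, a receptor of *Ccl3*, *Ccl5* and *Ccl9*, had 284 and 374 against 871 and 783 (log2 fold change −1.34 ± 0.18, adjusted p = 0.00176, limma). Its groups did not overlap. The summed normalized count of the 3 receptors was 2675 and 2507 in *Pich*-KO against 9643 and 8133 in *Pich*-WT. Over the same samples the macrophage markers fell in all 15 genes, with an 8.67-fold lower sum, while the monocyte markers *Ly6c2* and *Ms4a6c* were higher and *Lyz2* and *Cd14* lower. The part of these cells in the receptor values was not tested.

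Despite their lower counts, *Cx3cr1* and *Ccr2* remained the receptors with the highest level per kilobase of exon in every sample. In *Pich*-KO they made up 26.3% and 21.4% of the summed receptor level per kilobase of sample 1, and 19.9% and 23.3% of that of sample 2. In *Pich*-WT they made up 32.9% and 22.3% in sample 1, and 32.9% and 18.9% in sample 2. The next receptor was *Ccr1* in both *Pich*-KO samples and *Cxcr3* in both *Pich*-WT samples. The sum over all receptors was 908 and 862 normalized counts per kilobase in *Pich*-KO against 2932 and 2662 in *Pich*-WT.

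Receptors of lymphocytes and granulocytes were lower in several cases. *Cxcr3*, the receptor of *Cxcl9*, *Cxcl10* and *Cxcl11* on activated T cells, NK cells and plasmacytoid dendritic cells, is X-linked (ENSMUSG00000050232, chromosome X, 101731535 to 101734269, minus strand). It had 42.5 and 47.7 normalized counts in *Pich*-KO against 541 and 692 in *Pich*-WT, so that all *Pich*-WT values were more than 10 times those of *Pich*-KO. The difference was 13.7-fold (log2 fold change −3.73 ± 0.23, adjusted p = 6.1e-05, limma). *Cxcr6*, the receptor of *Cxcl16* on T, NK and innate lymphoid cells, had 34.9 and 37.5 in *Pich*-KO against 282 and 329 in *Pich*-WT. The samples of each group lay close together (log2 fold change −3.04 ± 0.24, adjusted p = 0.000173, limma). *Ccr8*, a receptor of *Ccl1* and *Ccl8*, had 8.73 and 7.96 against 35.9 and 51 (log2 fold change −2.23 ± 0.44, adjusted p = 0.0104, limma). *Ccr3*, the eotaxin receptor of eosinophils and basophils, had 3.27 and 7.96 against 29.7 and 48 (log2 fold change −2.65 ± 0.56, adjusted p = 0.0142, limma). Both were low genes whose groups did not overlap. The T cell genes *Cd3e* and *Cd3d* were at 2 to 24 normalized counts over the 4 samples, and the NK cell gene *Klrb1c* was lower in *Pich*-KO, at 15.3 and 20.5 against 98.5 and 107. It was the 1 gene called of the 8 B, T and NK cell markers. *Nkg7*, of NK and cytotoxic T cells, had 421 and 510 against 625 and 679 and was not called (log2 fold change −0.49, adjusted p = 0.0819, limma).

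Other receptors of lymphocytes, dendritic cells and granulocytes did not pass the threshold. *Cxcr2*, the neutrophil receptor of *Cxcl1*, *Cxcl2* and *Cxcl3*, had 154 and 140 normalized counts in *Pich*-KO against 53.9 and 92 in *Pich*-WT. Both *Pich*-KO samples were above both *Pich*-WT samples (log2 fold change 1.05, 95% interval 0.33 to 1.76, adjusted p = 0.055, limma). It passed with edgeR and DESeq2 on the recovered reads (adjusted p = 0.0456 and 0.0281) and with the filter at a mean of 10 (adjusted p = 0.0373, limma). *Ccr9*, the thymic homing receptor of *Ccl25*, had 226 and 54.6 in *Pich*-KO against 277 and 279 in *Pich*-WT, and the *Pich*-KO samples lay far from each other (log2 fold change −1.31, adjusted p = 0.163, limma). Without *Pich*-KO sample 1 it passed as lower (log2 fold change −2.33, adjusted p = 0.0397, limma), and without *Pich*-KO sample 2 the log2 fold change was −0.30 (adjusted p = 0.313, limma). A non-coding transcript on the opposite strand covers 18.8% of its exons. *Xcr1*, the receptor of cross-presenting dendritic cells, had 21.8 and 40.9 against 72.7 and 52 (log2 fold change −1.01, adjusted p = 0.145, limma). *Ccr7*, which guides dendritic and T cells to lymph nodes, had 141 and 60.2 against 113 and 63. *Cxcr5*, the follicular homing receptor, had 39.3 and 17.1 against 18.8 and 18. The groups overlapped for both. *Ccr4*, *Ccr6*, *Ccr10* and *Cxcr1* had at most 14 reads in any sample. The dendritic cell markers, of which 5 of 6 were lower, had sums of 360 and 172 in *Pich*-KO against 14196 and 9644 in *Pich*-WT, and their part in these values was not tested.

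Of the 4 atypical receptors, 2 were lower. *Ackr1*, the Duffy antigen of red cells and venules that binds many inflammatory chemokines, had 39.3 and 39.8 normalized counts in *Pich*-KO against 288 and 187 in *Pich*-WT. The *Pich*-KO samples were nearly equal and both *Pich*-WT samples were several times higher, a 6.01-fold difference (log2 fold change −2.52 ± 0.29, adjusted p = 0.00083, limma). Exons of *Cadm3* on the same strand share 25.7% of the exon length of *Ackr1*, so reads there cannot be assigned to either gene with certainty. *Ackr2*, the scavenger of inflammatory CC chemokines on lymphatic endothelium and on some leukocytes, had 7.63 and 11.4 in *Pich*-KO against 106 and 32 in *Pich*-WT. The groups were apart but the *Pich*-WT samples were unequal (log2 fold change −2.53 ± 0.60, adjusted p = 0.0228, limma), with an adjusted p of 0.0727 without the filter. *Ackr4*, which removes *Ccl25* and related homing chemokines, had 0 to 10 reads in a sample. The erythroid and endothelial markers were lower in 7 of 7 genes each, with erythroid sums of 26034 and 28534 in *Pich*-KO against 153424 and 116159 in *Pich*-WT and endothelial sums of 2497 and 1505 against 28955 and 19634. Their part in the values of *Ackr1* and *Ackr2* was not tested.

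**Figure D3:**
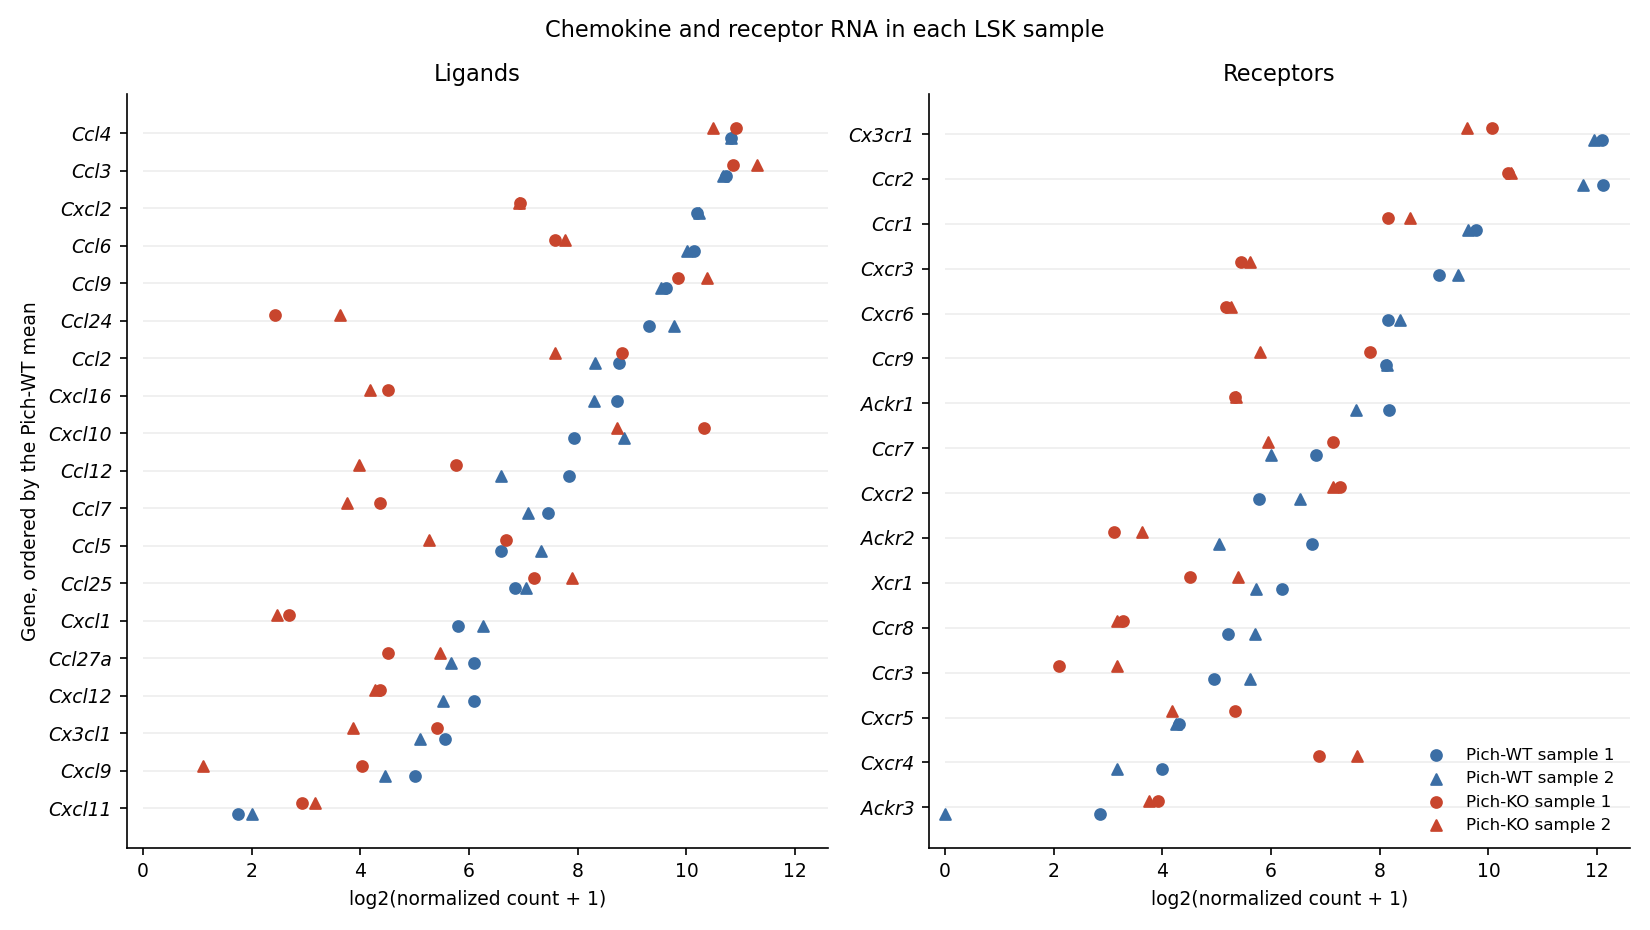
Log2(normalized count + 1) of 35 named genes in each sample, ligands on the left and receptors on the right, ordered by the *Pich*-WT mean, with *Pich*-WT in blue and *Pich*-KO in red. The red points lie left of the blue for *Ccl24*, *Cxcl16*, *Cxcl2* and *Cxcr3* and right of them for *Cxcr4*, whereas red and blue points of *Ccl4* and *Ccr7* are mixed.

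Among the ligands, the largest difference was that of *Ccl24* (eotaxin-2, ENSMUSG00000004814, chromosome 5, 135569937 to 135573049, minus strand), a macrophage product that attracts eosinophils through *Ccr3*. It had 4.36 and 11.4 normalized counts in *Pich*-KO against 636 and 870 in *Pich*-WT. The gene was thus close to the lower limit of detection in both *Pich*-KO samples and abundant in both *Pich*-WT samples, a 95.7-fold difference (log2 fold change −6.52 ± 0.42, adjusted p = 7.2e-05, limma). *Ccl7* and *Ccl12*, ligands of *Ccr2* that recruit monocytes, were lower as well. *Ccl7* had 19.6 and 12.5 in *Pich*-KO against 174 and 135 in *Pich*-WT (log2 fold change −3.21 ± 0.35, adjusted p = 0.000686, limma). *Ccl12* had 53.4 and 14.8 against 227 and 95, with wide gaps inside each group (log2 fold change −2.34 ± 0.62, adjusted p = 0.036, limma). Its adjusted p was 0.0853 with a pseudocount of 0.1 and 0.115 without the filter. *Ccl2*, the best known ligand of *Ccr2*, did not share this difference. It had 447 and 191 in *Pich*-KO against 431 and 317 in *Pich*-WT, overlapping groups (log2 fold change −0.34, 95% interval −1.19 to 0.51, adjusted p = 0.617, limma).

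The macrophage inflammatory protein genes, which signal through *Ccr1* and related receptors, were the main ligand transcripts of all 4 samples. *Ccl3* had 1859 and 2511 normalized counts in *Pich*-KO against 1697 and 1635 in *Pich*-WT, higher in both *Pich*-KO samples. *Ccl4* had 1922 and 1431 against 1806 and 1816, overlapping between groups. Neither passed, with log2 fold changes of 0.37 (95% interval 0.02 to 0.72, adjusted p = 0.147, limma) and −0.13 (95% interval −0.48 to 0.22, adjusted p = 0.653, limma). *Ccl9* had 917 and 1337 against 792 and 735 (log2 fold change 0.54, 95% interval 0.10 to 0.97, adjusted p = 0.097, limma), and passed with DESeq2 (adjusted p = 0.0248). *Ccl6*, a neighbouring myeloid chemokine, differed from them, with 191 and 216 in *Pich*-KO against 1130 and 1028 in *Pich*-WT. Its samples agreed closely within each group (log2 fold change −2.40 ± 0.16, adjusted p = 8.2e-05, limma). *Ccl5*, an attractant of T cells and monocytes, had 101 and 37.5 against 95.3 and 159 (log2 fold change −0.98, adjusted p = 0.225, limma). The summed count of the 5 genes was 4990 and 5532 in *Pich*-KO against 5521 and 5373 in *Pich*-WT.

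The ligand RNA of both *Pich*-KO samples was held to a larger share by its leading genes than that of both *Pich*-WT samples, as the stacked plot of ligands shows. Per kilobase of exon, the 3 leading ligands held 83.1% and 89.2% of the summed level in *Pich*-KO samples 1 and 2, against 66.4% and 67.9% in *Pich*-WT samples 1 and 2. In *Pich*-KO sample 1 these were *Ccl4* (41.0%), *Ccl3* (34.1%) and *Cxcl10* (8.03%). In *Pich*-KO sample 2 they were *Ccl3* (49.7%), *Ccl4* (32.9%) and *Ccl9* (6.65%). In *Pich*-WT samples 1 and 2 *Ccl4* and *Ccl3* also led, with 32.6% and 26.4% in sample 1 and 33.6% and 26.1% in sample 2. They were followed by *Ccl6* (7.49%) in sample 1 and by *Ccl24* (8.21%) in sample 2. The share of *Ccl3* was higher in both *Pich*-KO samples than in both *Pich*-WT samples, and that of *Ccl4* overlapped between groups. The shares were not tested.

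**Figure D4:**
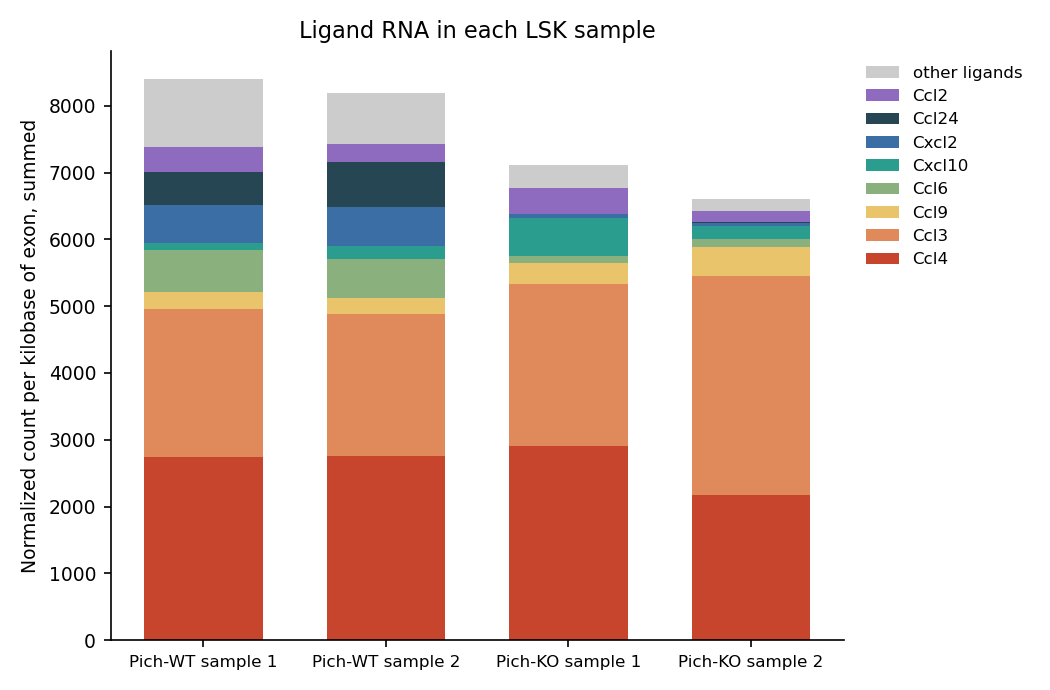
Summed level of ligand RNA per sample as normalized count per kilobase of exon, stacked by gene, with all ligands outside the 8 named ones in grey. *Ccl4* and *Ccl3* form the lower part of each bar, and the bands of *Ccl24*, *Cxcl2* and *Ccl6* that are visible in both *Pich*-WT bars are thin or not visible in both *Pich*-KO bars.

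Of the ligands of the neutrophil receptor *Cxcr2* among the 56 genes, *Cxcl1* and *Cxcl2* were lower. *Ppbp*, a CXC ligand outside the 56 genes, had 42.5 and 83.0 normalized counts in *Pich*-KO against 692 and 78 in *Pich*-WT. Its groups overlapped and it was not called (log2 fold change −1.95, adjusted p = 0.182, limma). *Cxcl2* (ENSMUSG00000058427, chromosome 5, 90903871 to 90905938, plus strand) had 122 and 119 normalized counts in *Pich*-KO against 1164 and 1197 in *Pich*-WT. The samples within a group were almost equal and the groups were 9.78-fold apart (log2 fold change −3.28 ± 0.16, adjusted p = 2.9e-05, limma). *Cxcl1* (ENSMUSG00000029380, chromosome 5, 90891241 to 90893115, plus strand) had 5.45 and 4.55 against 54.7 and 75, a 13-fold difference (log2 fold change −3.44 ± 0.44, adjusted p = 0.00141, limma). *Cxcl3*, next to them, had 7 to 11 reads in every sample, and *Cxcl5* and *Cxcl15* had 0 to 16. Of the neutrophil markers, *Mpo* and *Prtn3* were higher in *Pich*-KO and the other 7 were not called. The median log2 fold change over all 9 was 0.31. All 15 macrophage markers were lower, as *Cxcl1* and *Cxcl2* were. The part of these cells in the ligand values was not tested.

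The promoters of the 3 sister genes are shown because *Cxcl1* and *Cxcl2* had like fold changes while *Cxcl3* was near the lower limit in all samples. The sequences are RefSeq windows on GRCm38.p6, from 250 bases before to 50 after the transcription start, and matches to an NF-kB site (GGG, any 2 bases, then TTTCC, on either strand) are in capitals. NF-kB is a transcription factor of inflammatory signalling. The windows lie at chr5:90890995-90891294 for *Cxcl1*, chr5:90903649-90903948 for *Cxcl2* and chr5:90785851-90786150 for *Cxcl3*, all on the plus strand.
Cxcl1: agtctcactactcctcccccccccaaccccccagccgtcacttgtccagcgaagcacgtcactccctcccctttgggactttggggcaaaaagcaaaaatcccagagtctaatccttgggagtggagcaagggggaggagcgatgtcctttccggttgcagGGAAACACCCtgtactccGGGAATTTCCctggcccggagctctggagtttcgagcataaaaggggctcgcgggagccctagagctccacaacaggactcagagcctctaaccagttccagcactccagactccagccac
Cxcl2: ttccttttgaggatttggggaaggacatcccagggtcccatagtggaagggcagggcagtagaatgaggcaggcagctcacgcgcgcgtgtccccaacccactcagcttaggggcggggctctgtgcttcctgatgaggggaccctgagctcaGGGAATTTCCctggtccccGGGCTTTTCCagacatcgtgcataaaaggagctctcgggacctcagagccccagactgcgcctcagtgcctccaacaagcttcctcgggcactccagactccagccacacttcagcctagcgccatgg
Cxcl3: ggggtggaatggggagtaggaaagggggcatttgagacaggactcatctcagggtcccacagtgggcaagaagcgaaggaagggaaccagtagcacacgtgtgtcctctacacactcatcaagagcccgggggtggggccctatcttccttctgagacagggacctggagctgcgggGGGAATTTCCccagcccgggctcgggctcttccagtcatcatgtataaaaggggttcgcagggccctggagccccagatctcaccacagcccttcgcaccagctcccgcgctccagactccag
All 3 windows hold the same 10 bases, GGGAATTTCC, at 71 bases before the start in *Cxcl1*, 97 in *Cxcl2* and 73 in *Cxcl3*. *Cxcl1* and *Cxcl2* hold a second match. Promoter windows were found for 41 of the 56 genes, and 6 of these genes hold the NF-kB letters (*Ccl9*, *Ccl20*, *Ccr3*, *Cxcl1*, *Cxcl2* and *Cxcl3*). By window, 6 of the 45 windows of these 41 genes hold them, against 1.63% of all 32851 windows. The 3 sister genes share the same letters, so these matches are not independent. Of the 6, *Cxcl1*, *Cxcl2* and *Ccr3* were lower in *Pich*-KO, and *Ccl9*, *Ccl20* and *Cxcl3* did not pass the threshold. No match overlapped a match to another of the 3 motifs searched. A match describes the letters of the window and not a bound site.

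The interferon-inducible ligands of *Cxcr3* did not pass the threshold in either direction in the main test. With a term for the sample number added (a replicate block), *Cxcl10* passed as higher and *Cxcl9* as lower in *Pich*-KO. *Cxcl10* (ENSMUSG00000034855, chromosome 5, 92346638 to 92348889, minus strand) had 1285 and 423 normalized counts in *Pich*-KO against 242 and 460 in *Pich*-WT. *Pich*-KO sample 1 was far above the other samples, and *Pich*-KO sample 2 was below *Pich*-WT sample 2. The log2 fold change was 1.14 (95% interval 0.01 to 2.27, adjusted p = 0.172, limma), and without *Pich*-KO sample 1 it was 0.34. *Cxcl9* had 15.3 and 1.14 against 31.3 and 21, lower in both *Pich*-KO samples (log2 fold change −2.18, 95% interval −4.26 to −0.09, adjusted p = 0.158, limma). *Cxcl11* had 6.54 and 7.96 against 2.34 and 3, where both *Pich*-WT samples had 3 reads, and its log2 fold change was 1.17 (adjusted p = 0.286, limma). A processed pseudogene on the opposite strand covers 41.7% of the exons of *Cxcl11*, and 5.91% of those of *Cxcl10* are shared with *Art3*. The 3 genes lie side by side between 92321347 and 92365485 on chromosome 5. The RefSeq promoter window of *Cxcl10* (GRCm38.p6, chr5:92348840-92349139, minus strand) is shown because it holds the letters of an interferon-stimulated response element (GAAA, any 2 bases, then GAAA, on either strand), in capitals and 213 bases before the start, whereas the window of *Cxcl9* does not.
Cxcl10: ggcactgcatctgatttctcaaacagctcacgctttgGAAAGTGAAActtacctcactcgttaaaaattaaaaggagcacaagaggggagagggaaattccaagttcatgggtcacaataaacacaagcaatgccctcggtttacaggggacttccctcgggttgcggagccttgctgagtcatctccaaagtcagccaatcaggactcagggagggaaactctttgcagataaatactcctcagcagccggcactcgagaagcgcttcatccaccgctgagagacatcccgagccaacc
These letters were found in 3.44% of all windows and, among the 41 genes with a window, in *Cxcl10* and *Cxcl14*. *Cxcl14* had at most 1 read in a sample. The letters of a gamma-activated sequence (TTC, any 3 bases, then GAA, the same letters on both strands) were in 8.30% of all windows and in those of *Ccl17*, *Ccr6* and *Cxcl14*, which all had few reads.

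Of the membrane-bound ligands, *Cxcl16* was lower and *Cx3cl1* was not called. *Cxcl16* (ENSMUSG00000018920, chromosome 11, 70453983 to 70459984, minus strand), a scavenger receptor for oxidized lipid on macrophages and dendritic cells as well as the ligand of *Cxcr6*, had 21.8 and 17.1 normalized counts in *Pich*-KO against 420 and 312 in *Pich*-WT. Both *Pich*-WT samples were more than 10 times both *Pich*-KO samples, an 18.8-fold difference (log2 fold change −4.16 ± 0.29, adjusted p = 9.6e-05, limma). Exons of *Zmynd15* on the opposite strand overlap 18.3% of its exon length. *Cx3cl1*, the endothelial and neuronal ligand of *Cx3cr1*, had 41.4 and 13.6 against 46.1 and 33, overlapping groups (log2 fold change −0.68, adjusted p = 0.481, limma). For this pair the receptor was called and the ligand was not.

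Homeostatic and tissue ligands were few and mostly low. *Ccl25*, the thymic and intestinal ligand of *Ccr9*, had 146 and 235 normalized counts in *Pich*-KO against 114 and 131 in *Pich*-WT, higher in both *Pich*-KO samples without passing (log2 fold change 0.60, 95% interval −0.04 to 1.24, adjusted p = 0.207, limma). *Ccl27a*, a skin chemokine, had 21.8 and 43.2 against 67.2 and 50 (log2 fold change −0.89, adjusted p = 0.21, limma). Of the 12 homing and tissue ligands, *Cxcl12* alone was called. Over all classes, the 20 genes that were not named for their level had at most 16 reads in a sample. Of these, *Ccl11*, *Ccl26*, *Cxcl5*, *Cxcl14* and *Cxcr1* did not pass the filter on the mean, and *Ccl17* had 2 reads in each *Pich*-KO sample and 0 in each *Pich*-WT sample, within the 3 reads taken as the floor. Of the 15 that were tested, 0 passed the threshold with limma, 0 passed with edgeR or DESeq2, and 0 had an unadjusted p under 0.05 with limma.

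Many members are clustered in the genome. The largest cluster on chromosome 9, from 123678439 to 124113557, holds *Ccr9*, *Cxcr6*, *Xcr1*, *Ccr1*, *Ccr3* and *Ccr2*. These 6 receptors all had a negative log2 fold change and 4 were lower past the threshold. A second pair on the same chromosome, *Cx3cr1* and *Ccr8* between 119901616 and 120094906, was lower in both genes. The ligand clusters were mixed. On chromosome 11, the cluster from 82035571 to 82305690 (*Ccl2*, *Ccl7*, *Ccl11*, *Ccl12*, *Ccl8* and *Ccl1*) had 2 lower genes of 5 tested, and that from 83525778 to 83664683 (*Ccl5*, *Ccl9*, *Ccl6*, *Ccl3* and *Ccl4*) had 1 of 5. On chromosome 5, the *Cxcl1* and *Cxcl2* cluster from 90759360 to 90905938 had 2 lower genes of 4 tested. No receptor or ligand cluster held a gene that was higher past the threshold, and *Cxcr4* has no other member next to it on chromosome 1. Of all genes tested, 9.6% were lower and 7.58% higher. With the filter at a mean of 10, these shares were 21.5% and 17.9%. The clusters hold few genes each and were not tested against these shares.

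Ligand and receptor pairs fell into several patterns. Both partners were lower for *Ccl24* with *Ccr3*, *Cxcl16* with *Cxcr6*, and *Ccl7* and *Ccl12* with *Ccr2*. The receptor alone was called for *Cx3cr1* and for *Cxcr3*. The same held for the pairs of *Ccr2* with *Ccl2*, *Ccr1* with *Ccl3*, *Ccl5* and *Ccl9*, and *Ccr8* with *Ccl1* and *Ccl8*. These pairs do not cover all ligands of each receptor. *Ccl6*, of the group that signals through *Ccr1* and related receptors, was lower, as *Ccr1* was. Ligands alone were called for *Cxcl1* and *Cxcl2*, whose receptor *Cxcr2* had higher counts in both *Pich*-KO samples. *Cxcl12* and *Cxcr4* were called in opposite directions.

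Downstream and accessory genes of chemokine signalling outside the named families were taken from a list of 47 genes, chosen with earlier results of these data known. All 47 were matched and tested. At an adjusted p of 0.05, 20 of these (42.6%) were lower, against 9.6% of all genes tested, and 4 (8.51%) were higher, against 7.58% of all genes. Of the 47 genes, 46 had a mean of at least 10, against 16280 of the 32428 genes tested. With the filter at a mean of 10, 47.8% of the list were lower, against 21.5% of all genes. Under that filter 10.9% were higher, against 17.9% of all genes. The median log2 fold change of the 47 genes in the main test was −0.40, against 0.02 over all genes. The 3 with the lowest values were *Pf4*, the platelet CXC chemokine, *Foxo1*, a transcription factor that sustains the expression of homing receptors, and *Gng11*, a G protein gamma subunit. *Pf4* had 200 and 284 normalized counts in *Pich*-KO against 2362 and 1828 in *Pich*-WT (log2 fold change −3.12, adjusted p = 8.1e-05, limma). *Foxo1* had 177 and 80.7 against 1091 and 822 (log2 fold change −2.98, adjusted p = 0.000858, limma), and *Gng11* had 99.3 and 86.4 against 723 and 522 (log2 fold change −2.72, adjusted p = 0.000187, limma). The 3 with the highest values were *Cmtm7*, a chemokine-like membrane protein, *Rgs14*, a brake on inhibitory G proteins, and *Dock2*, the Rac activator of migrating leukocytes. *Cmtm7* had 7826 and 8279 in *Pich*-KO against 4319 and 4103 in *Pich*-WT (log2 fold change 0.94, adjusted p = 0.000269, limma). *Rgs14* had 533 and 604 against 334 and 353 (log2 fold change 0.72, adjusted p = 0.0174, limma). *Dock2* had 4062 and 3477 against 2599 and 2636 (log2 fold change 0.52, adjusted p = 0.0124, limma). In all 6 genes the groups did not overlap. Of the megakaryocyte markers, 2 of 6 were lower, with sums of 882 and 809 in *Pich*-KO against 2026 and 1191 in *Pich*-WT, and their part in the *Pf4* value was not tested.

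Samples of a group were alike for most members in *Pich*-WT and less so in *Pich*-KO. Of the 36 named genes, 9 were at least 2-fold higher in *Pich*-KO sample 1 than in *Pich*-KO sample 2 and 2 were at least 2-fold higher in sample 2. Between the *Pich*-WT samples, 3 genes (*Ackr2*, *Ccl12* and *Ackr3*, the last with 0 reads in sample 2) were at least 2-fold higher in sample 1 and 0 in sample 2. Among the genes with such a gap in *Pich*-KO were *Cxcl10*, *Ccl2*, *Ccr9* and *Ccr7*.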

How the data were processed

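The RNA of LSK cells sorted from fetal liver was sequenced in 2 *Pich*-KO and 2 *Pich*-WT samples, each grouped by its label. The submitters' processing notes name Bowtie 0.12.2 and the builds mm8 and mm9, whereas all 56 chemokine genes have the coordinates of GENCODE M21 on GRCm38, which are given here. The counter and the use of strand are not given in the sources used here, so reads of overlapping genes cannot be told apart. The values that the authors deposited are a signal, reads on genes divided by a size factor per sample, beside the gene length in bases from the deposited table, used for levels per kilobase of exon. Its fold change and p-value columns, the authors' own comparison, were not used. All values (100%) were whole multiples of 1 step per sample within 0.01 reads, which gave back the reads.

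Groups were compared with limma 3.58.1 in R 4.3.3 on log2(normalized count + 1) with a variance trend, over genes with a mean of at least 1 and Benjamini-Hochberg adjustment over all of them. The test procedure was checked on simulated counts. Alternatives were a pseudocount of 0.1, no filter, a mean of at least 10, no trend, edgeR 4.0.16 (quasi-likelihood, TMM) and DESeq2 1.42.0 on the recovered reads, a replicate block, and leaving out each sample. A sample's 3 reads, worth 2.34 to 3.41 normalized counts, were taken as the floor, for counting error only. Replicates differed by more than sampling noise (chi-square per degree of freedom 14.7 in *Pich*-KO and 8.18 in *Pich*-WT). Named genes are those with a mean of at least 10 in either group, 7 genes of the *Cxcl12* and *Cxcr3* axes whatever their level, and the 3 highest and 3 lowest called genes of the signalling list. *Ppbp* of that list is named as well. The members and all lists were chosen with earlier results of these data known. For 1 member no values are given here.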

Additional observations from a re-analysis of the deposited data

How the results depend on the processing

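Of the 19 genes called, 16 kept their call and direction in 6 alternatives, that is, all but the removal of the variance trend and of single samples. The exceptions were *Ccl12*, *Ackr2* and *Cxcl12*. Without the trend 0 genes passed, among chemokine genes, ligands, receptors, the signalling list and all genes, in either direction, although 21 of the 51 genes and 7377 of all genes had an unadjusted p under 0.05. The cause was not tested. Genes higher in *Pich*-KO numbered 2 with a mean of at least 10, 2 with edgeR, 3 with DESeq2 and 6 with a replicate block, against 1 in the main test. Among these, receptors numbered 2, 2, 2 and 3, and ligands 1 with DESeq2 and 3 with the block. Same-numbered samples did not deviate together (r = 0.01 over 10544 genes). This check has a single difference per group, so it cannot exclude that same-numbered samples share a batch. With the replicate block 21 genes were lower. The block added calls for 8 named genes (*Ackr3*, *Ccl3*, *Ccl5*, *Ccl9*, *Ccr9*, *Cxcl9*, *Cxcl10* and *Cxcr2*) and ended none.

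Leaving out each sample in turn gave 0 to 0 genes higher and 0 to 10 lower, 0 to 5 ligands and 0 to 5 receptors lower and 0 to 0 receptors higher, 0 to 1 signalling genes higher and 0 to 8 lower, and 0 to 548 of all genes higher and 0 to 1193 lower. The highest values were those without *Pich*-KO sample 1. In these fits the lone sample of a group is assumed to vary like the other group, with 1 residual degree of freedom. Over these fits the log2 fold change ran from −0.95 to 0.27 for *Ccl2*, from −0.34 to 0.086 for *Ccl4* and from −1.45 to 0.085 for *Cx3cl1*, positive without *Pich*-KO sample 2. It ran from −0.48 to 0.73 for *Ccr7*, negative without *Pich*-KO sample 1 (−0.48) or *Pich*-WT sample 2 (−0.29), and from −0.10 to 1.06 for *Cxcr5*, negative without *Pich*-KO sample 1. None of these 5 genes was called with all samples. Over all genes, 2915 were higher and 3497 lower of 16280 with a mean of at least 10, and 1840 and 2326 of 39186 without a filter, against 2459 and 3113 of 32428 in the main test. The smallest change that could be detected at a given number of reads was not measured.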
